A study of Mus musculus with 12 samples.

Results

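The aminoacyl-tRNA synthetase genes were followed in primary mouse oligodendrocyte precursor cells (OPCs) exposed to microglial extracellular vesicles (EVs). The members were 36 genes chosen by name, 20 for cytosolic enzymes and 16 for mitochondrial enzymes, whose symbols end in 2. Of these, 34 were measured, 18 cytosolic and 16 mitochondrial, each by the 1 transcript cluster that carried its symbol, out of 65535 clusters on the array. Dars was not measured because no cluster carried that symbol. Aars was not measured because its cluster was annotated to Exosc6 as well. Mars was annotated under its newer name, Mars1. A transcript cluster is the set of probes that the array assigns to one gene. Levels are given as log2 of the deposited RMA intensity, which is comparable between arrays for the same gene but not between genes. Of the 34 measured genes, 27 had a mean level of at least 6 log2, a limit used to mark dim clusters. These were the 18 cytosolic genes and 9 of the 16 mitochondrial genes.

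Aminoacyl-tRNA synthetases join each amino acid to its matching transfer RNA, the step that gives the genetic code its meaning. Cells keep separate sets of these enzymes for the cytosol and for the mitochondrial matrix, although the glycyl and lysyl enzymes serve both from a single gene. The enzymes fall into structural classes I and II, and several cytosolic ones sit together in the multisynthetase complex around the scaffold proteins AIMP1, AIMP2 and EEF1E1. Many cytosolic synthetase genes are transcribed under ATF4, the transcription factor that amino acid shortage and other stresses bring up. Human disorders of white matter arise from inherited defects in several synthetase and scaffold genes, among them EPRS1, RARS1, AIMP1, AIMP2 and the mitochondrial EARS2 and AARS2.

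The 4 conditions had 3 arrays each. OPCs received i-EVs, released by microglia under pro-inflammatory cytokines, IL4-EVs, from microglia given interleukin 4, or MSC-EVs, from microglia that shared their inflammatory culture with mesenchymal stem cells. The CTRL cells received medium alone. No EVs of unstimulated microglia were analysed here. All OPCs came from C57Bl/6 brains at postnatal day 2, were sorted with anti-CD140a beads, and grew for 48 h in proliferation medium before the switch to differentiation medium. The EVs were added about 4 h after the switch at 2 donor microglia per OPC. The descriptions place lysis 24 h after treatment in one text and 24 h after the switch in another. The methods call the 3 samples of a condition independent replicates and name no litters or preparations. The p-values cover the spread among these samples, which may be technical in part.

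The summed linear intensity of 8 OPC markers lay between 988000 and 1140000 over the 12 arrays. That of 11 microglial markers lay between 102 and 118, and Cx3cr1, P2ry12 and Tmem119, which define microglia, stayed between 3.07 and 4.01 log2; 0 of the 11 were called in any comparison. Most of the OPC marker sum came from Olig2, Gpr17 and Ptprz1. Of the 8 OPC markers, 2 rose with IL4-EVs and 2 with MSC-EVs, against 1.61% and 5.86% of all clusters. Their log2 differences ran from -0.03 to 0.71 and from -0.38 to 0.79. Of 8 oligodendrocyte markers, 0 were called in any comparison. Their sums were 1080 to 1190 (i-EVs), 1120 to 1170 (IL4-EVs), 695 to 1150 (MSC-EVs) and 998 to 1060 (CTRL). Markers of other brain cells moved in both directions. Of 6 astrocyte markers, 2 fell with IL4-EVs (Slc1a3 and Aldoc), and 1 rose (Slc1a2) and 1 fell (Aldoc) with MSC-EVs; i-EVs arrays had a summed intensity of these of 1330 to 1340, IL4-EVs arrays of 1160 to 1170, MSC-EVs arrays of 1120 to 1550 and CTRL arrays of 1520 to 1620. Gfap and Gja1 were between 3.45 and 3.76 log2, and Aldoc between 9.76 and 10.42 log2. Of 9 neuron markers, 1 rose (Dcx) and 2 fell (Snap25 and Nefl) with IL4-EVs, and 2 fell (the same pair) with MSC-EVs; the sums were 11500 to 13100, 13100 to 13700 and 12400 to 14100 in the order i-EVs, IL4-EVs, MSC-EVs, and 11700 to 12100 in CTRL. Of all clusters, 1.61% rose and 4.13% fell with IL4-EVs, and 5.86% rose and 6.75% fell with MSC-EVs. Of protein-coding genes with a mean of at least 6 log2, 6.86% and 11.5% rose and 20.5% and 24.6% fell. Both marker lists also hold genes below that level, such as Gfap and Rbfox3. The part of these markers in the synthetase differences was not tested. With i-EVs and IL4-EVs, 18 and 17 of 19 cell cycle genes averaged below CTRL, with median log2 differences of -0.415 and -0.528. Of the 19, 0 and 1 were called. Their summed intensity was 60900 to 63400 and 63000 to 69500, and 75900 to 82800 in CTRL. Under MSC-EVs, 13 of the 19 averaged below CTRL (median log2 difference -0.168) and 0 were called. The sums of the MSC-EVs arrays ran from 63300, below every CTRL array, to 219000. The mean level of the 19 genes was 9.91 to 11.54 log2 on MSC-EVs arrays. It was 9.91 to 9.99 log2 on IL4-EVs arrays and 10.41 to 10.62 log2 on CTRL arrays. The part of these genes in the synthetase differences was not tested. MSC-EVs array 3 stood apart. Its summed intensity of the 19 genes was 219000, and its Mki67 level was 16.69 log2, against 14.28 to 14.92 log2 on the other 11 arrays. On that array Nkx2-2 was 8.15 log2 and Myrf 6.08 log2, the lowest of the 12.

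Against CTRL, IL4-EVs and MSC-EVs changed few synthetase genes, and by small amounts in both directions. A gene was called where the limma adjusted p, corrected over all clusters, was below 0.05. With IL4-EVs, 2 members rose (Eprs and Iars) and 3 fell (Sars, Mars and Hars2), which is 14.7% of the 34. The same rule called 5.74% of all clusters (1.61% higher and 4.13% lower) and 27.4% of the 6877 protein-coding genes with a mean of at least 6 log2 (6.86% higher and 20.5% lower). With MSC-EVs, 2 rose (Eprs and Iars) and 5 fell (Farsa, Mars, Sars, Hars2 and Nars2), which is 20.6% of the members, against 12.6% of all clusters (5.86% higher and 6.75% lower) and 36.1% of those protein-coding genes (11.5% higher and 24.6% lower). The shares of members were thus above those of all clusters and below those of brighter protein-coding genes, a set without the 7 dim mitochondrial members. With i-EVs 0 of 34 members were called, against 0.476% of all clusters and 2.15% of those protein-coding genes, although 7 had an unadjusted p below 0.05. No member reached a fold of 1.5 in any comparison, a limit that 0.154%, 1.8% and 5.73% of all clusters passed together with the adjusted p in the i-EVs, IL4-EVs and MSC-EVs comparisons. The 3 comparisons share the CTRL arrays, so the 5 genes called with both IL4-EVs and MSC-EVs do not count as separate evidence. Without MSC-EVs array 3, 11 of these 12 calls were kept, Nars2 with MSC-EVs being the exception. In bulk RNA, less RNA per cell cannot be told apart from fewer cells of a type.

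**Figure D1:**
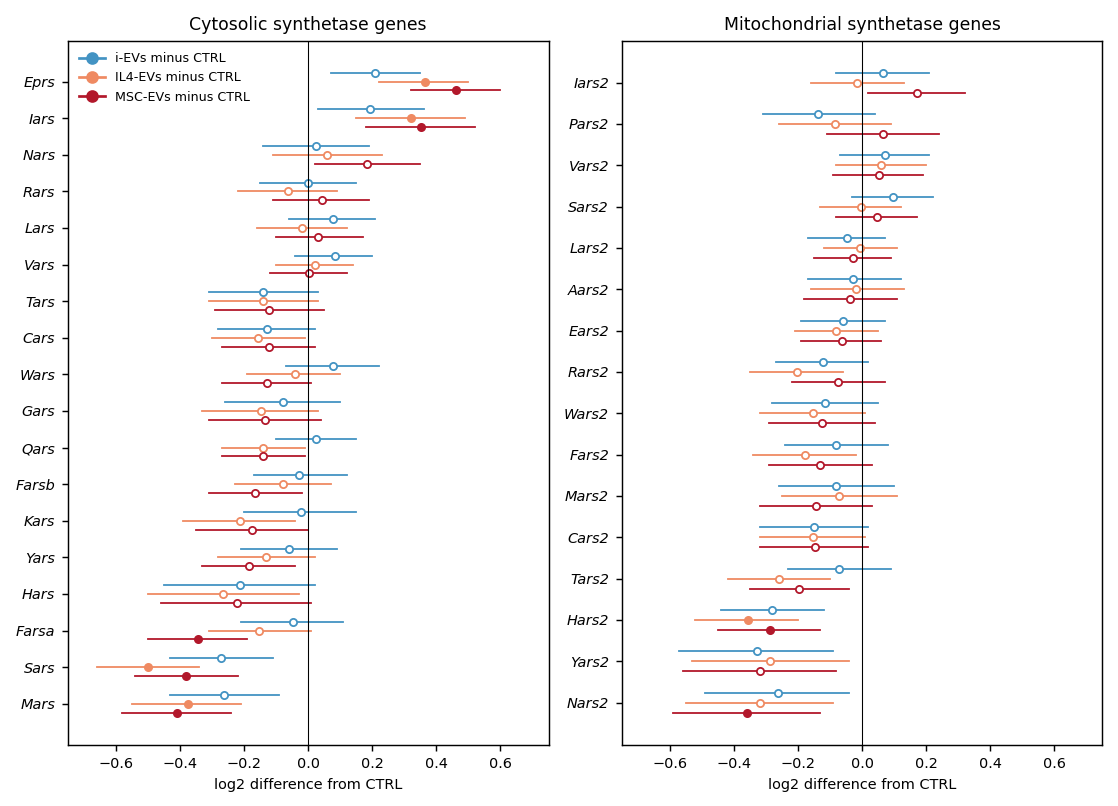
Log2 difference from CTRL (horizontal axis) of the 18 cytosolic and 16 mitochondrial synthetase genes measured, with 95% confidence intervals from the limma fit, 1 colour per EV type. Filled points passed an adjusted p of 0.05. Most points lie between -0.4 and 0.4, with Eprs and Iars to the right of zero and Sars, Mars, Hars2 and Nars2 to the left.

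Eprs encodes the bifunctional glutamyl-prolyl enzyme, which joins both activities in 1 polypeptide of the complex. Its level was 12.10, 11.98 and 12.09 log2 with i-EVs, 12.17, 12.25 and 12.20 log2 with IL4-EVs, 12.32, 12.30 and 12.30 log2 with MSC-EVs, and 11.80, 11.95 and 11.79 log2 in CTRL. Every EV-treated array was above every CTRL array, and the MSC-EVs arrays were the highest of all. The log2 difference from CTRL was 0.36 (SE 0.0637, adjusted p = 0.00691) with IL4-EVs and 0.46 (SE 0.0637, adjusted p = 0.00107) with MSC-EVs, folds of 1.29 and 1.38. With i-EVs it was 0.21 (adjusted p = 0.159) and was not called. The IL4-EVs and MSC-EVs calls of Eprs held in all 20 alternative settings.

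Iars, the cytosolic isoleucyl enzyme and another part of the complex, was 12.55, 12.55 and 12.72 log2 with i-EVs, 12.70, 12.82 and 12.69 log2 with IL4-EVs, 12.78, 12.72 and 12.80 log2 with MSC-EVs, and 12.32, 12.54 and 12.38 log2 in CTRL. All EV-treated arrays again lay above the CTRL arrays, with the nearest pair almost touching. It rose by 0.32 (SE 0.0767, adjusted p = 0.0319) with IL4-EVs and by 0.35 (SE 0.0767, adjusted p = 0.0107) with MSC-EVs. The first call was lost without CTRL 1, CTRL 3 or any 1 of the IL4-EVs arrays, with an adjusted p of up to 0.143. The second was lost without CTRL 1 (adjusted p = 0.054).

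Sars, the cytosolic seryl enzyme, works outside the complex. Its levels were 13.13, 12.94 and 13.05 log2 with i-EVs, 12.83, 12.74 and 12.87 log2 with IL4-EVs, 12.87, 12.89 and 13.03 log2 with MSC-EVs, and 13.36, 13.30 and 13.27 log2 in CTRL. All EV-treated arrays were below the CTRL arrays, and the IL4-EVs arrays were lowest on average. It fell by 0.50 (SE 0.0723, adjusted p = 0.00277) with IL4-EVs, the widest difference of any member, and by 0.38 (SE 0.0723, adjusted p = 0.00517) with MSC-EVs. The MSC-EVs call was lost after cyclic loess scaling (adjusted p = 0.0802), and the IL4-EVs call held in all 20 settings.

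Mars, the methionyl enzyme, charges both initiator and elongator transfer RNAs and belongs to the complex. It was at 9.57, 9.29 and 9.50 log2 with i-EVs, 9.36, 9.36 and 9.30 log2 with IL4-EVs, 9.25, 9.28 and 9.39 log2 with MSC-EVs, and 9.77, 9.68 and 9.71 log2 in CTRL. The CTRL arrays again stood clear of all others. Mars fell by 0.38 (SE 0.0777, adjusted p = 0.0157) with IL4-EVs and by 0.41 (SE 0.0777, adjusted p = 0.00511) with MSC-EVs. The IL4-EVs call was lost without CTRL 1, IL4-EVs 2 or IL4-EVs 3, with an adjusted p of up to 0.0763.

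Farsa and Farsb encode the subunits of the cytosolic phenylalanyl enzyme. Farsa was 7.88, 7.84 and 7.91 log2 with i-EVs, 7.66, 7.92 and 7.73 log2 with IL4-EVs, 7.57, 7.63 and 7.54 log2 with MSC-EVs, and 7.95, 7.95 and 7.88 log2 in CTRL. The MSC-EVs arrays alone lay below the arrays of the 3 other conditions, while the IL4-EVs and i-EVs arrays overlapped CTRL. Farsa fell by 0.34 with MSC-EVs (SE 0.0719, adjusted p = 0.0084), a call that held in all 20 settings. Its partner Farsb was not called, with a log2 difference of -0.17 for MSC-EVs minus CTRL.

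**Figure D2:**
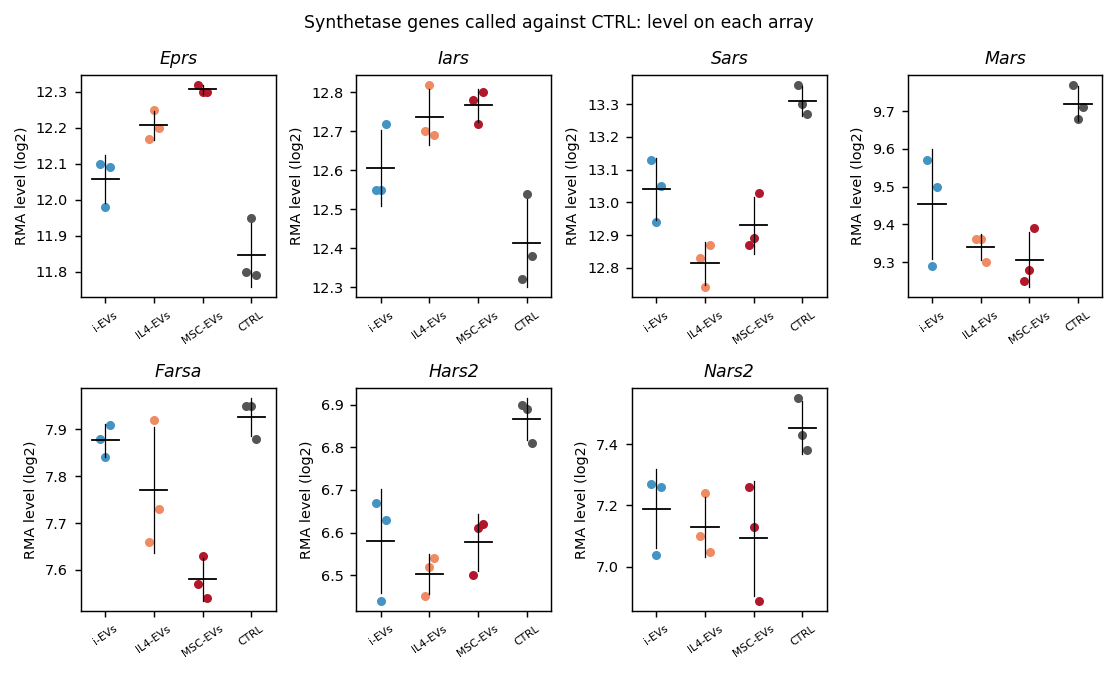
RMA level (log2, vertical axes that do not start at zero) on each of the 12 arrays for the 7 synthetase genes called against CTRL, with i-EVs, IL4-EVs, MSC-EVs and CTRL from left to right. Horizontal lines are means and vertical lines 1 SD over 3 arrays; for Eprs the 3 MSC-EVs arrays sit at 12.30 to 12.32, above all CTRL arrays at 11.79 to 11.95.

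Among the mitochondrial enzymes, Hars2 and Nars2 were called and none rose. Hars2, the mitochondrial histidyl enzyme, was 6.67, 6.44 and 6.63 log2 with i-EVs, 6.45, 6.52 and 6.54 log2 with IL4-EVs, 6.50, 6.61 and 6.62 log2 with MSC-EVs, and 6.90, 6.89 and 6.81 log2 in CTRL. The EV-treated arrays all fell short of CTRL. It fell by 0.36 (SE 0.0726, adjusted p = 0.0145) with IL4-EVs and by 0.29 (SE 0.0726, adjusted p = 0.0228) with MSC-EVs. The IL4-EVs call was lost without CTRL 1, CTRL 2, IL4-EVs 1 or IL4-EVs 2 (adjusted p up to 0.0693), and the MSC-EVs call without CTRL 1, CTRL 2 or MSC-EVs 1 (up to 0.0874). Hars, the cytosolic histidyl gene that lies beside Hars2 in the genome, was not called, with log2 differences of -0.27 (adjusted p = 0.218) and -0.22 (adjusted p = 0.243). With IL4-EVs Hars passed the threshold when only IL4-EVs and CTRL arrays were fitted (adjusted p = 0.0348).

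Nars2, the mitochondrial asparaginyl enzyme, was 7.27, 7.04 and 7.26 log2 with i-EVs, 7.10, 7.24 and 7.05 log2 with IL4-EVs, 7.26, 7.13 and 6.89 log2 with MSC-EVs, and 7.55, 7.43 and 7.38 log2 in CTRL. The groups did not overlap with CTRL, but MSC-EVs array 3, the array that stood apart, was the lowest. The fall of 0.36 with MSC-EVs (SE 0.103, adjusted p = 0.0409) was lost most often of the 12 calls, in 11 of 20 settings, including without CTRL 1, CTRL 2 or CTRL 3 and without MSC-EVs 2 or MSC-EVs 3, with an adjusted p of up to 0.154. With IL4-EVs the log2 difference was -0.32 (adjusted p = 0.11).

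A pair of further mitochondrial genes came close to the threshold. Yars2, for the mitochondrial tyrosyl enzyme, was 7.10, 6.64 and 7.08 log2 with i-EVs, 6.96, 7.02 and 6.97 log2 with IL4-EVs, 6.93, 6.94 and 6.98 log2 with MSC-EVs, and 7.38, 7.30 and 7.14 log2 in CTRL. Its arrays separated from CTRL in all 3 comparisons, yet the CTRL arrays themselves were spread, and the log2 differences of -0.33 (i-EVs, adjusted p = 0.2), -0.29 (IL4-EVs, adjusted p = 0.197) and -0.32 (MSC-EVs, adjusted p = 0.0896) did not pass the test. Tars2, for the mitochondrial threonyl enzyme, was 7.46, 7.26 and 7.52 log2 with i-EVs, 7.21, 7.26 and 7.21 log2 with IL4-EVs, 7.27, 7.34 and 7.26 log2 with MSC-EVs, and 7.44, 7.48 and 7.54 log2 in CTRL. Its IL4-EVs and MSC-EVs arrays were below CTRL while its i-EVs arrays overlapped CTRL, and its log2 differences of -0.26 and -0.20 had adjusted p of 0.06 and 0.11.

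The other 27 measured members were called in no comparison with CTRL. Over all 34, the log2 differences ran from -0.33 to 0.21 with i-EVs, from -0.50 to 0.36 with IL4-EVs and from -0.41 to 0.46 with MSC-EVs. The 3 arrays of a treatment lay wholly above the 3 CTRL arrays for 3, 2 and 3 members under i-EVs, IL4-EVs and MSC-EVs, where 9.52%, 11.8% and 12.4% of all clusters did so. They lay wholly below CTRL for 9, 18 and 15 of the 34 members, where 9.98%, 14.6% and 14.5% of all clusters did so. The share among brighter protein-coding genes was not computed. Of those genes, 20.5% and 24.6% were called lower with IL4-EVs and MSC-EVs, against 4.13% and 6.75% of all clusters. Among the members called nowhere, Nars, the cytosolic asparaginyl enzyme, had a log2 difference of 0.18 with MSC-EVs (adjusted p = 0.169). It was 0.10 (adjusted p = 0.457) without MSC-EVs array 3, and passed the threshold at 0.34 (adjusted p = 0.0238) after renewed quantile normalization and at 0.37 (adjusted p = 0.012) after cyclic loess. Rars, Lars and Vars, for the arginyl, leucyl and valyl enzymes, had log2 differences between -0.06 and 0.08 on the deposited scale and were not called. After renewed quantile normalization Rars was at 0.24 with MSC-EVs (adjusted p = 0.0836) and at 0.14 with i-EVs, and Lars and Vars were at 0.17 and 0.14 with i-EVs.

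With i-EVs the lowest adjusted p of any member was 0.0957, for Hars2 (log2 difference -0.28). Sars (-0.27, adjusted p = 0.105) and Mars (-0.26, adjusted p = 0.144) followed. When only clusters with a mean of at least 6 log2 were tested, these 3 genes and Eprs passed the threshold, with adjusted p between 0.0269 and 0.043. That filter changes the adjustment of every cluster tested, and the share of them that passed is not given here. The genes with the 5 widest i-EVs differences included Yars2 and Nars2, at -0.33 and -0.26. i-EVs array 2 was the lowest of the 12 arrays for 7 of the 34 members, among them Yars2 and Hars2, as IL4-EVs array 1 was for 7 and MSC-EVs array 3 for 6.

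Set directly against each other, the EV types gave 0 calls among the 34 members. For MSC-EVs against i-EVs, 5 members had an unadjusted limma p below 0.05, and the lowest adjusted p was 0.066, where 1.45% of all clusters were called. Farsa averaged 7.58 log2 with MSC-EVs and 7.87 log2 with i-EVs, a difference of -0.30 (SE 0.0719, adjusted p = 0.066). Eprs averaged 12.31 log2 with MSC-EVs and 12.05 log2 with i-EVs, a difference of 0.25 (SE 0.0637, adjusted p = 0.0747). Both passed the threshold when only clusters with a mean of at least 6 log2 were tested and after either rescaling. For MSC-EVs against IL4-EVs, 2 members had an unadjusted p below 0.05 (lowest adjusted p 0.487), and for IL4-EVs against i-EVs 5 did (lowest 0.503), where 0.00153% and 0% of all clusters were called. An effect called with MSC-EVs and not with IL4-EVs, as for Farsa (log2 difference MSC-EVs minus IL4-EVs of -0.19, adjusted p = 0.487), was therefore not shown to differ between these EV types.

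The compartments were compared by the median log2 difference over their genes. For the 18 cytosolic genes it was -0.025 (i-EVs), -0.137 (IL4-EVs) and -0.132 (MSC-EVs). For the 16 mitochondrial genes it was -0.082, -0.118 and -0.10 in the same order. The medians of the 6877 protein-coding genes with a mean of at least 6 log2 were -0.066, -0.104 and -0.092, and those of all clusters were 0.019, 0.001 and -0.008. Mitochondrial minus cytosolic gave -0.056, 0.019 and 0.032 on the deposited scale, but the order of the compartments depended on the scaling of the arrays. After cyclic loess the mitochondrial medians were -0.043, -0.109 and -0.071 and the cytosolic ones 0.091, 0.002 and -0.005. After renewed quantile normalization they were -0.051, -0.121 and -0.150 for mitochondrial and 0.071, -0.014 and -0.044 for cytosolic genes, so that the mitochondrial median was the lower one in all 3 comparisons after either rescaling. Over the 9 mitochondrial genes with a mean of at least 6 log2 the IL4-EVs median was -0.204 and the MSC-EVs median -0.145, also below the cytosolic medians. The difference between compartments was not tested. By count, 14 of 18 cytosolic and 15 of 16 mitochondrial genes had a value below CTRL with IL4-EVs, and after cyclic loess 8 of 18 and 10 of 16 did.

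**Figure D3:**
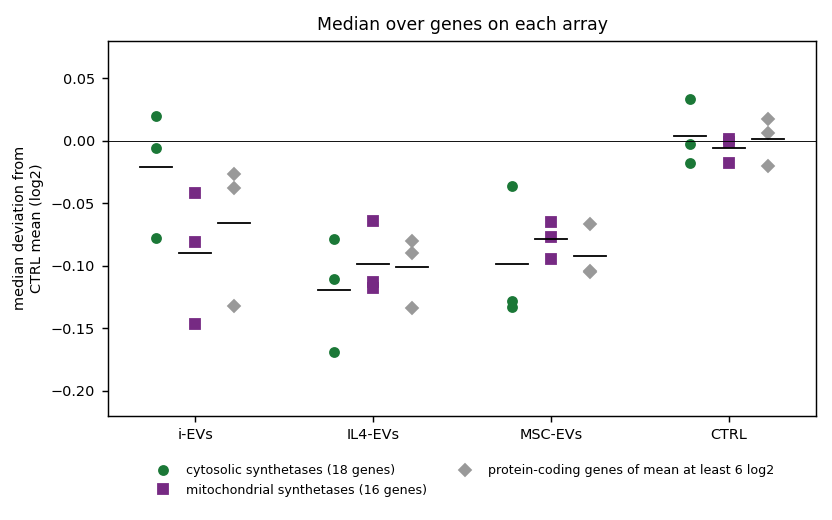
Median deviation from the CTRL mean (log2, vertical axis) on each array over the 18 cytosolic synthetases, the 16 mitochondrial synthetases and the protein-coding genes with a mean of at least 6 log2. Short lines are means of 3 arrays; the medians of the mitochondrial genes on the EV-treated arrays lie between -0.147 and -0.042, and the CTRL arrays between -0.018 and 0.001.

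By structural class, the 19 class I genes included 2 that rose and 1 that fell with IL4-EVs, and the same counts with MSC-EVs. The 16 measured class II genes included 1 that rose and 2 that fell with IL4-EVs, and 1 that rose and 4 that fell with MSC-EVs. Of the brighter protein-coding genes, 6.86% rose and 20.5% fell with IL4-EVs and 11.5% rose and 24.6% fell with MSC-EVs. The 4 of 16 is near that last share, but both classes hold dim mitochondrial genes, which that set leaves out. Eprs carries a domain of each class and was counted in both. The median differences were -0.071 and -0.076 log2 for class I and -0.150 and -0.149 log2 for class II, with IL4-EVs and MSC-EVs in that order.

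Of the 8 enzymes of the multisynthetase complex, 7 were measured. With IL4-EVs and with MSC-EVs, 2 rose (Eprs and Iars) and 1 fell (Mars). The 11 cytosolic enzymes outside the complex had 0 that rose and 1 that fell with IL4-EVs, and 0 that rose and 2 that fell with MSC-EVs. Of the brighter protein-coding genes, 6.86% and 11.5% rose and 20.5% and 24.6% fell in these comparisons. Of all clusters, 1.61% and 5.86% rose and 4.13% and 6.75% fell. The difference between enzymes inside and outside the complex was not tested. The complex enzymes that were not called were Kars, Lars, Qars and Rars. Qars, the glutaminyl enzyme, was 7.51, 7.35 and 7.42 log2 with i-EVs, 7.23, 7.27 and 7.27 log2 with IL4-EVs, 7.27, 7.27 and 7.23 log2 with MSC-EVs, and 7.39, 7.42 and 7.39 log2 in CTRL. Its IL4-EVs and MSC-EVs arrays lay below CTRL, by 0.14 log2 on average in each, with adjusted p of 0.234 and 0.162.

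Of the 3 scaffold genes of the complex, 2 fell with IL4-EVs and 3 with MSC-EVs, against 4.13% and 6.75% of all clusters and 20.5% and 24.6% of the brighter protein-coding genes. Their median differences were -0.42 and -0.473 log2. Aimp1 was 8.66, 8.43 and 8.36 log2 with i-EVs, 8.31, 8.32 and 8.40 log2 with IL4-EVs, 8.31, 8.41 and 8.62 log2 with MSC-EVs, and 8.86, 8.74 and 8.88 log2 in CTRL. It fell by 0.48 (SE 0.0955, adjusted p = 0.0128) with IL4-EVs and by 0.38 (adjusted p = 0.0208) with MSC-EVs. Aimp1 was below CTRL on all EV-treated arrays, but its MSC-EVs call was lost when only MSC-EVs and CTRL arrays were fitted, after cyclic loess (adjusted p = 0.0757) and without CTRL 1, CTRL 3, MSC-EVs 1 or MSC-EVs 2, and its IL4-EVs call without CTRL 1, IL4-EVs 1 or IL4-EVs 2.

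Aimp2 was 8.19, 8.04 and 8.13 log2 with i-EVs, 7.63, 7.71 and 7.82 log2 with IL4-EVs, 7.65, 7.74 and 7.48 log2 with MSC-EVs, and 8.31, 8.13 and 7.99 log2 in CTRL. The IL4-EVs and MSC-EVs arrays were below those of i-EVs and of CTRL, which overlapped. It fell by 0.42 (SE 0.0968, adjusted p = 0.0264) with IL4-EVs and by 0.52 (SE 0.0968, adjusted p = 0.0047) with MSC-EVs, and the direct difference of MSC-EVs minus i-EVs was -0.50 (adjusted p = 0.0359). The MSC-EVs call against CTRL held in all 20 settings. The IL4-EVs call was lost after renewed quantile normalization and without CTRL 1, CTRL 2, IL4-EVs 1 or IL4-EVs 2, with an adjusted p of up to 0.117. The direct one was lost in 11 settings, among them without any 1 i-EVs array and without MSC-EVs 1 or MSC-EVs 3, with up to 0.171. Eef1e1 was 13.61, 13.31 and 13.27 log2 with i-EVs, 13.16, 13.16 and 13.23 log2 with IL4-EVs, 13.22, 13.21 and 12.80 log2 with MSC-EVs, and 13.61, 13.50 and 13.53 log2 in CTRL. It fell by 0.47 with MSC-EVs (SE 0.117, adjusted p = 0.0203), where MSC-EVs array 3 was the lowest, and was not called with IL4-EVs (-0.36, adjusted p = 0.108). The MSC-EVs call was lost when only MSC-EVs and CTRL arrays were fitted, after both rescalings (adjusted p = 0.145 and 0.101) and without CTRL 1 or CTRL 3.

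Of 13 cytosolic synthetase genes listed as ATF4 targets, 12 were measured. Among them 2 rose and 2 fell with IL4-EVs, and 2 rose and 2 fell with MSC-EVs, Eprs and Iars in one direction and Sars and Mars in the other. Of 26 other genes of the program, 25 were measured, and 4 fell with IL4-EVs, while 5 fell and 1 rose with MSC-EVs. Among the brighter protein-coding genes 20.5% fell with IL4-EVs, and 24.6% fell and 11.5% rose with MSC-EVs. Of all clusters 4.13% fell with IL4-EVs, and 6.75% fell and 5.86% rose with MSC-EVs. The program's median differences were -0.12 and -0.118 log2, beside -0.104 and -0.092 for the brighter protein-coding genes. The counts were no higher than the shares of those genes, but that set leaves out dim genes. The program includes some below 6 log2, such as Atf3, Trib3 and Stc2. Shares and medians over its brighter genes were not computed.

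Atf4 itself was 7.50, 7.23 and 7.29 log2 with i-EVs, 7.23, 7.17 and 7.10 log2 with IL4-EVs, 7.27, 7.14 and 7.10 log2 with MSC-EVs, and 7.54, 7.45 and 7.46 log2 in CTRL. It fell by 0.32 log2 with IL4-EVs (adjusted p = 0.0433) and by the same amount with MSC-EVs (adjusted p = 0.0245). The i-EVs arrays of Atf4 overlapped CTRL, and its calls were lost in 11 of 20 settings with IL4-EVs (adjusted p up to 0.166) and in 6 with MSC-EVs (up to 0.0989), each of the CTRL arrays left out among them. ATF4 is controlled in large part at translation, which an array of transcripts does not measure.

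Asns, the asparagine synthetase that supplies the substrate of Nars and Nars2, was 11.04, 10.95 and 10.99 log2 with i-EVs, 10.87, 10.78 and 10.83 log2 with IL4-EVs, 10.82, 10.71 and 10.74 log2 with MSC-EVs, and 11.18, 11.17 and 11.08 log2 in CTRL. No EV-treated array of Asns reached the CTRL arrays. It fell by 0.32 (adjusted p = 0.0101) with IL4-EVs and by 0.39 (adjusted p = 0.00192) with MSC-EVs, the IL4-EVs call being lost after cyclic loess and without CTRL 1 or IL4-EVs 2 (adjusted p up to 0.0977). Psat1 and Psph make serine, the substrate of Sars. Psat1 fell by 0.39 (adjusted p = 0.00553) and 0.36 (adjusted p = 0.00455), and Psph by 0.45 (adjusted p = 0.0102) and 0.33 (adjusted p = 0.0264), with IL4-EVs and MSC-EVs in that order. Psat1 lost its IL4-EVs call after renewed quantile normalization (adjusted p = 0.157) and its MSC-EVs call after both rescalings (adjusted p up to 0.337). Psph lost its MSC-EVs call in 6 of 19 settings, among them without each CTRL array and without MSC-EVs 1 or MSC-EVs 2 (adjusted p up to 0.0982). Phgdh, the first enzyme of that route, was not called, at -0.58 (adjusted p = 0.0521) and -0.34 (adjusted p = 0.209). Without MSC-EVs array 3 the MSC-EVs difference of Phgdh was -0.57 and passed the threshold (adjusted p = 0.00196).

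Ddit4, an inhibitor of mTORC1 signalling, was 9.96, 9.83 and 10.04 log2 with i-EVs, 9.76, 9.82 and 9.90 log2 with IL4-EVs, 9.85, 9.77 and 8.84 log2 with MSC-EVs, and 10.39, 10.43 and 10.42 log2 in CTRL. It fell by 0.93 with MSC-EVs (SE 0.204, adjusted p = 0.011), the widest change of the program, and MSC-EVs array 3 was far below the other arrays. Without that array the fall was 0.60 (adjusted p = 0.00116). Slc7a1, a carrier of basic amino acids, rose by 0.34 with MSC-EVs (SE 0.0736, adjusted p = 0.00976). Both calls were lost when only MSC-EVs and CTRL arrays were fitted (adjusted p = 0.0837 and 0.0517). Ddit3 and Slc7a5, other ATF4 targets, were not called.

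**Figure D4:**
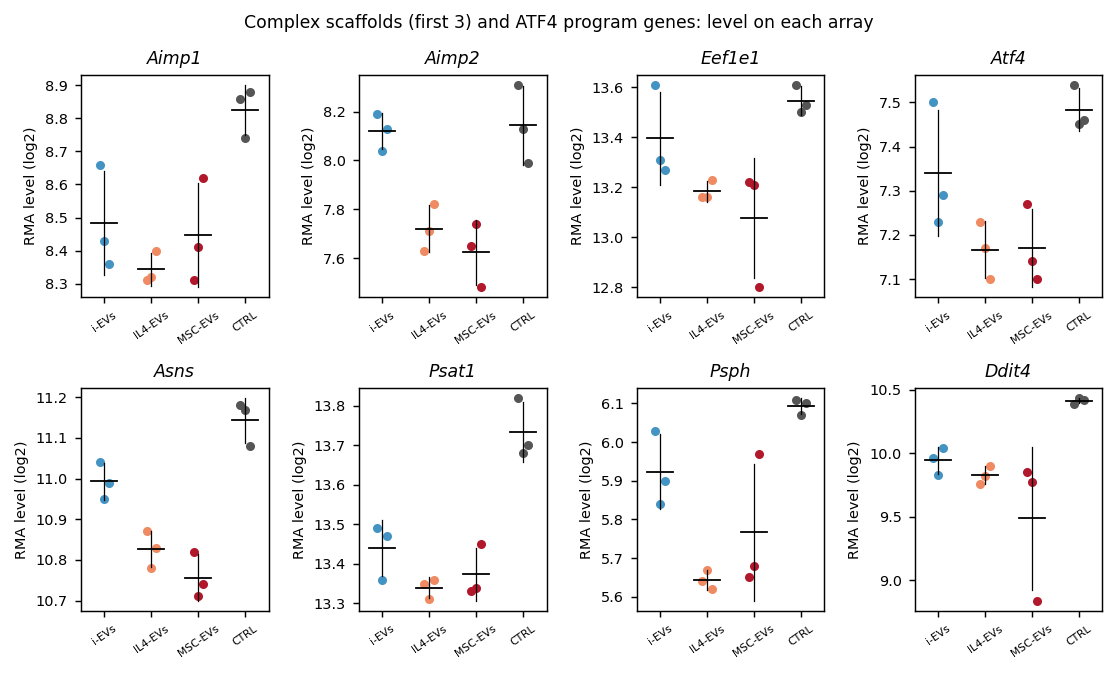
RMA level (log2, vertical axes that do not start at zero) on each array for the scaffold genes Aimp1, Aimp2 and Eef1e1 and for 5 genes of the ATF4 program, with i-EVs, IL4-EVs, MSC-EVs and CTRL from left to right. Horizontal lines are means and vertical lines 1 SD over 3 arrays; MSC-EVs array 3 is the low point of Ddit4 at 8.84 and of Eef1e1 at 12.80.

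ATF4 binds DNA with C/EBP partners at a composite element read here as TGATGNAA, searched on both strands within 250 bases before each RefSeq start in build GRCm38.p6. It was present for 2 of 11 measured cytosolic synthetase genes with a RefSeq promoter (18.2%), for 0 of 14 mitochondrial genes, for 0 of 3 scaffold genes and for 6 of 24 genes of the ATF4 program (25%), against 3.91% of 27025 genes. The stretches around the match are shown for Gars and Tars, the measured synthetase genes that hold one, and for Asns, the called program gene that holds one, 5′ to 3′ along the strand of each gene, with the match in capitals.
Gars, + strand, chr6:55037960-55037989: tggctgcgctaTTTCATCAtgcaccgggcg
Tars, - strand, chr15:11399659-11399688: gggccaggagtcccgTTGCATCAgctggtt
Asns, - strand, chr6:7693214-7693243: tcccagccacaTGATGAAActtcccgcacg
Gars and Tars carry the element in its reverse orientation and Asns in the forward one. Gars and Tars, for the glycyl and threonyl enzymes, were not called in any comparison. Eprs, Iars, Sars, Mars, Farsa and Nars2 had a RefSeq promoter without these letters in the window searched.

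The mitochondrial enzymes work beside factors that process and modify mitochondrial transfer RNAs and use them in translation. Of 20 genes listed for these roles, 18 were measured, and 5 fell with IL4-EVs and 5 with MSC-EVs, while 0 rose. Of all clusters 4.13% and 6.75% fell, and of the brighter protein-coding genes 20.5% and 24.6%. The median differences were -0.133 and -0.116 log2, beside -0.104 and -0.092 for those protein-coding genes. That set leaves out dim genes, while the 18 include some below 6 log2, such as Gatb, Trmu and Tsfm. Shares and medians over the brighter of the 18 were not computed, so these values do not place the list against its background. Hsd17b10, a subunit of mitochondrial RNase P, was 9.18, 9.15 and 9.07 log2 with i-EVs, 8.86, 8.82 and 8.89 log2 with IL4-EVs, 8.74, 8.85 and 8.49 log2 with MSC-EVs, and 9.39, 9.41 and 9.42 log2 in CTRL. Its arrays were below CTRL throughout, and it fell by 0.55 (SE 0.0838, adjusted p = 0.00363) with IL4-EVs and by 0.71 (SE 0.0838, adjusted p = 0.000564) with MSC-EVs in all 20 settings. The direct difference of MSC-EVs minus i-EVs was -0.44 (adjusted p = 0.0332), a call lost in 12 of 20 settings, any 1 i-EVs array and MSC-EVs 1 or MSC-EVs 3 left out among them.

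Gatb, a subunit of the amidotransferase that makes mitochondrial glutaminyl-tRNA in place of a dedicated synthetase, was 5.31, 5.30 and 5.28 log2 with i-EVs, 5.16, 5.20 and 5.25 log2 with IL4-EVs, 5.07, 5.14 and 5.08 log2 with MSC-EVs, and 5.52, 5.55 and 5.42 log2 in CTRL. All EV-treated arrays were below CTRL. It fell by 0.30 (adjusted p = 0.0132) with IL4-EVs and by 0.40 (adjusted p = 0.00149) with MSC-EVs, the IL4-EVs call being lost without CTRL 1, CTRL 2, IL4-EVs 1 or IL4-EVs 2 (adjusted p up to 0.0653). Pnpt1, the mitochondrial polynucleotide phosphorylase, fell by 0.37 (adjusted p = 0.0113) and 0.36 (adjusted p = 0.00673) in the same order, and lost the IL4-EVs call without CTRL 1 or IL4-EVs 1 (adjusted p up to 0.0614). Trnt1, which adds the CCA end to transfer RNAs, and the initiation factor Mtif2 fell with IL4-EVs, by 0.44 (adjusted p = 0.027) and 0.27 (adjusted p = 0.0268). Each of these calls was lost in 8 of 20 settings, among them without any 1 CTRL or IL4-EVs array (adjusted p up to 0.108 and 0.129). With MSC-EVs Trnt1 was at -0.20 (adjusted p = 0.278). Without MSC-EVs array 3 that difference was -0.33 and passed the threshold (adjusted p = 0.0224). Mtif3, another initiation factor, and Tufm, the mitochondrial elongation factor that carries charged transfer RNA, fell with MSC-EVs, by 0.35 (adjusted p = 0.0238) and 0.27 (adjusted p = 0.0389). They were lost in 4 of 19 and 14 of 20 settings (adjusted p up to 0.0912 and 0.124), CTRL 1, CTRL 3 or MSC-EVs 1 left out among them. The Tufm call was also lost with the replicate number as a block (adjusted p = 0.058) and without MSC-EVs 3 (adjusted p = 0.116).

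Among genes related to the synthetases by sequence or by handling charged transfer RNAs, 9 of 14 were measured, and 3 fell with IL4-EVs and 4 with MSC-EVs, against 20.5% and 24.6% of the brighter protein-coding genes (4.13% and 6.75% of all clusters). Eef1b2, an exchange factor for the elongation factor that carries charged transfer RNA to the ribosome, was 13.39, 13.08 and 13.22 log2 with i-EVs, 13.05, 12.91 and 13.14 log2 with IL4-EVs, 12.92, 12.96 and 12.85 log2 with MSC-EVs, and 13.69, 13.58 and 13.62 log2 in CTRL. The CTRL arrays lay above all the others. It fell by 0.59 (SE 0.0869, adjusted p = 0.00292) with IL4-EVs and by 0.72 (SE 0.0869, adjusted p = 0.000576) with MSC-EVs, folds of 1.51 and 1.65. Eef1d, another subunit of that exchange complex, fell by 0.36 (adjusted p = 0.0072) and 0.38 (adjusted p = 0.00271). Dtd1, which clears D-amino acids from mischarged transfer RNAs, fell by 0.37 (adjusted p = 0.0115) and 0.50 (adjusted p = 0.00119), the IL4-EVs call being lost without CTRL 2 or IL4-EVs 2 (adjusted p up to 0.0583). Yrdc, needed for a modification of transfer RNAs that read codons starting with A, fell with MSC-EVs by 0.37 (adjusted p = 0.0028).

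Across all protein-coding genes with a mean of at least 6 log2, the difference from CTRL moved with the length of the gene in the genome, here its span in RefSeq build GRCm38.p6. Genes with a span under 10 kb had a median log2 difference of -0.303 with IL4-EVs and -0.309 with MSC-EVs, and genes over 100 kb one of 0.127 and 0.177. Between these, genes of 10 to 30 kb had -0.184 and -0.169, and genes of 30 to 100 kb -0.024 and 0.011. The risen members Eprs and Iars span 66.9 and 52.1 kb. The fallen members Mars, Sars, Farsa and Hars2 span 15.6, 20.4, 12.3 and 9.36 kb, while Nars2 spans 114 kb. The longest members not called, Fars2, Lars2 and Wars2, span 420, 95.7 and 81.1 kb. Their log2 differences were -0.177, -0.005 and -0.152 with IL4-EVs and -0.131, -0.029 and -0.124 with MSC-EVs. With IL4-EVs and MSC-EVs in that order, Spearman's rho between span and log2 difference was 0.077 and 0.161 over all 34 members. It was 0.393 and 0.416 over the 18 cytosolic genes and -0.088 and -0.041 over the 16 mitochondrial genes. Over the 6877 genes it was 0.489 and 0.537. These are descriptions across genes of the same arrays, which are not independent replicates. The part of gene span in the members' differences was not tested.

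**Figure D5:**
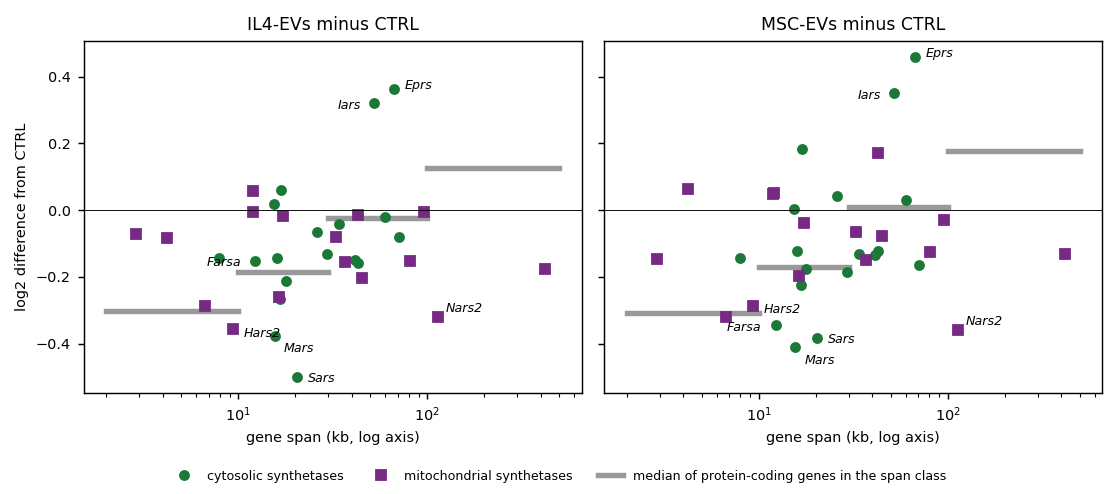
Log2 difference from CTRL (vertical axis) against gene span (kb, log axis) for the 34 measured synthetase genes, with IL4-EVs on the left and MSC-EVs on the right. Grey bars are the medians of protein-coding genes in 4 span classes, from -0.303 (IL4-EVs) and -0.309 (MSC-EVs) under 10 kb to 0.127 and 0.177 over 100 kb, and the 7 called genes are named.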

How the data were processed

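Total RNA (100 ng) was hybridized to 12 Clariom D mouse arrays, 3 per condition. The deposited values are intensities that the authors obtained by RMA with quantile normalization of perfect-match probes, written on a linear scale (3.34 to 999968); the sources used here name no genome build for the annotation. Both deposited tables hold the same values. Here log2 values were fitted in limma 3.58.1 (R 4.3.3) with 1 mean per condition over all 12 arrays, moderated variance, and Benjamini-Hochberg adjustment over 65535 clusters in each comparison. Gene names came from the platform annotation (30404 clusters with 1 symbol, 2145 with several, 32986 with none). Members, gene lists and tests were chosen with earlier results of these data known. Every member was accounted for, and those called against CTRL, with the 3 of smallest p per compartment, were given per array. Genes of other lists were named where called, up to 4 per list, and Phgdh, Ddit3, Slc7a5 and the further genes of those lists were chosen after their values were seen. The fit was tested on simulated data. Alternatives were other scalings, moderation, sample sets and filters, a replicate block, and each array left out. The number of arrays limits the precision. Figures used matplotlib. One promoter stretch is not reported here.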

Additional observations from a re-analysis of the deposited data

How the results depend on the processing

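All 12 calls of synthetase genes against CTRL kept their direction in the 20 alternative settings, and the fits with a robust moderation, an intensity trend, or only clusters with a mean of at least 6 log2 kept all 12. Without CTRL 1, 6 of the 12 were lost. Fitting only the 2 conditions compared gave 3 mitochondrial calls with IL4-EVs and 1 with MSC-EVs. Testing clusters with a mean of at least 6 log2 alone gave 3 cytosolic and 1 mitochondrial call with i-EVs. It gave 4 mitochondrial calls with IL4-EVs and 4 with MSC-EVs, and 2 calls for MSC-EVs against i-EVs. Over the 9 mitochondrial genes left, the medians were -0.204 (IL4-EVs) and -0.145 (MSC-EVs). Renewed quantile normalization gave cytosolic medians of 0.071, -0.014 and -0.044 log2 (i-EVs, IL4-EVs, MSC-EVs), 4 mitochondrial calls and a mitochondrial median of -0.150 with MSC-EVs, and 2 calls for MSC-EVs against i-EVs. Cyclic loess gave 1 cytosolic call with i-EVs, cytosolic medians of 0.091, 0.002 (a change of sign with IL4-EVs) and -0.005, a mitochondrial median of -0.071 with MSC-EVs, and 2 calls for MSC-EVs against i-EVs. Array weights gave 5 mitochondrial calls with IL4-EVs. Why these counts and medians moved was not tested. The shares of all clusters called in these fits are not given here. Requiring a fold of 1.5 left 0 cytosolic and 0 mitochondrial calls with IL4-EVs and with MSC-EVs. Leaving out 1 array at a time gave 2 to 4 cytosolic and 0 to 3 mitochondrial calls with IL4-EVs, 4 to 5 and 0 to 4 with MSC-EVs, and 0 with i-EVs and between EV types. Over the same fits the cytosolic medians ran from -0.052 to 0.005, -0.152 to -0.098 and -0.141 to -0.113, and the mitochondrial ones from -0.118 to -0.074, -0.137 to -0.105 and -0.10 to -0.075, in the order i-EVs, IL4-EVs, MSC-EVs. Without MSC-EVs 3 there were 5 cytosolic calls and 1 mitochondrial call with MSC-EVs. With the replicate number as a block, the counts stayed at 4 cytosolic and 1 mitochondrial call with IL4-EVs and 5 and 2 with MSC-EVs. Deviations of same-numbered arrays correlated at -0.103 to 0.141, over 0.1 in 3 of 18 pairs. For arrays of other numbers the range was -0.134 to 0.106, over 0.1 in 1 of 36 pairs. Pairs of arrays numbered 1 ran from 0.072 to 0.141. Whether same-numbered arrays share a preparation is not stated and was not tested. The Tufm call with MSC-EVs was lost under that block (adjusted p = 0.058). Averaging all clusters of a symbol changed nothing, as each member had 1 cluster.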
